A study of Mus musculus with 22 samples.

Results

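The comparison set 3 RNA-seq libraries labelled D-KO beside 3 labelled WT, chosen by the genotype in the sample labels. They are 6 of the 12 RNA-seq libraries of the series and of its 22 samples in all. The cells were E14, a line of mouse embryonic stem cells. Before collection, LIF and the kinase inhibitors of the naive culture medium had been withdrawn, and 2 µM retinoic acid had been added for 1 day. WT cells carried neither deletion, and E1-KO and E2-KO cells each lacked 1 enhancer, all under the same treatment. The labels do not spell out D-KO, which is read here as the loss of both enhancers. The sources used here do not give the borders of the deletions or the number of clones behind each genotype, and untreated cells were not analysed here. The series' title ties both enhancers to HoxB expression and to the early response to retinoic acid, and the comparison asks what their joint loss does to RNA levels in treated cells.

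Retinoic acid, made from vitamin A, enters the nucleus and binds retinoic acid receptors, which sit on DNA as dimers with retinoid X receptors and switch on nearby genes. In stem cells among the first to respond are the 3′ genes of the HoxA and HoxB clusters. Hox proteins are homeodomain transcription factors that give cells along the body axis their position, and they bind DNA together with TALE homeodomain partners of the Pbx and Meis families. As stem cells leave the naive state, genes such as Klf4 and Esrrb fall and genes of the early lineages rise.

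The libraries held 9507298 to 13007735 counts in WT and 10137742 to 10593418 in D-KO. The series design calls them biological replicates without saying whether they came from separate cultures, so p-values measure the spread between these libraries. That spread was unequal. The median gene-wise dispersion, a measure of replicate variance beyond counting noise, was 0.0952 among WT and 0.00677 among D-KO libraries. The edgeR test used below fits a single dispersion per gene over both genotypes, so its p-values and SE assume an equal spread. The mean chi-square per gene between libraries, about 1 under counting noise alone, was 45.2 to 90.6 for WT pairs and 2.35 to 2.90 for D-KO pairs. Mitochondrial transcripts took 3.50%, 1.94% and 5.88% of the counts in WT replicates 1, 2 and 3, against 2.53% to 2.69% in D-KO. The rank correlation of relative expression with GC content, across genes within a library, was -0.56, 0.14 and -0.43 in the same WT replicates and -0.10 to -0.02 in D-KO. The part of these differences in the results below was not tested, apart from the alternative fits given with them. Stem cell markers were abundant in both genotypes: Nanog stood at 677, 616 and 582 CPM, counts scaled to a common library size, in WT and at 680, 702 and 670 in D-KO.

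Of 15827 genes tested, 1438 (9.09%) differed between D-KO and WT in edgeR's quasi-likelihood test at a Benjamini-Hochberg adjusted p below 0.05. Of these, 649 were higher in D-KO (4.1% of genes tested) and 789 were lower (4.99%). Changes of at least 1 on the log2 scale made up 395 of the rises and 571 of the falls. In all 1438 called genes the D-KO libraries lay entirely above or entirely below the WT libraries, as they did in 33.4% of all genes tested. The median log2 change over all genes tested was -0.01. The number of calls depended on the libraries: it was 706 without WT replicate 1, 4237 without WT replicate 2, and 318, 344 and 339 without D-KO replicates 1, 2 and 3. Member counts of the gene lists below have to be read against the shares of 4.1% called higher and 4.99% called lower. The ranges given for gene lists below follow the same pattern: the lowest counts came without a D-KO library or WT replicate 1, and the highest without WT replicate 2 or 3. On simulated counts with these library sizes and spreads, 200 of 15827 genes were given a change. The same step found 17% of simulated log2 changes of size 1 and 76% of those of size 2. The Benjamini-Hochberg adjustment depends on how many genes change, and 1438 were called in the data. These percentages therefore do not give the share found in the data, where moderate differences can have been missed.

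**Figure D1:**
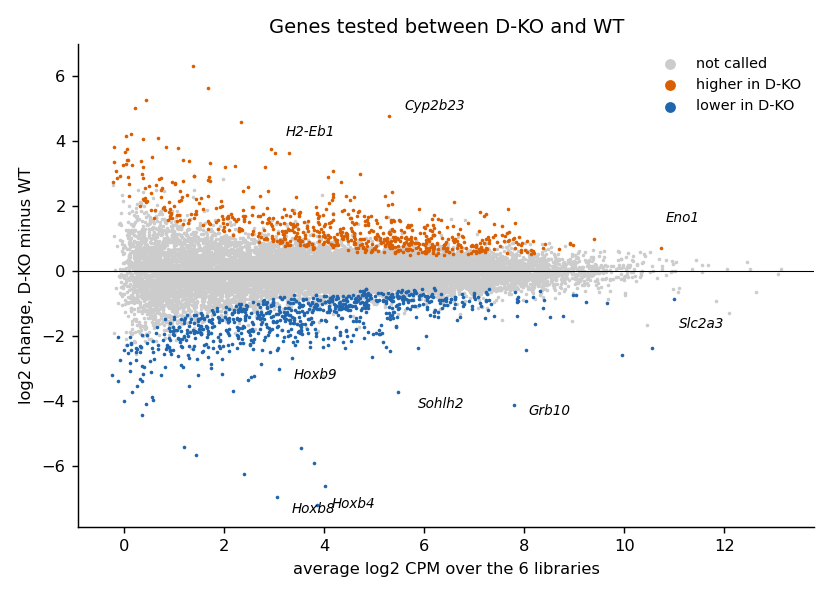
Log2 change of D-KO minus WT (vertical) against the average log2 CPM over the 6 libraries (horizontal) for each gene tested; orange and blue points are the 649 genes called higher and the 789 called lower. Genes with 0 counts in every library of a genotype, such as Hoxb5 and Hoxb6, have no finite change and are not drawn. Hoxb1 to Hoxb4, Hoxb7 and Hoxb8 are among the lowest points, from -7.19 (Hoxb4) to -5.43 (Hoxb1). Hoxb9 (-3.02) and Hoxb13 (-1.44) lie higher.

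HoxB expression was nearly lost in D-KO, and it was far below WT in both single deletions as well. Summed over the 10 HoxB genes, WT libraries held 94.2 to 195 CPM and D-KO libraries 3.22 to 5.25 CPM. The sum was 10.6 to 10.8 CPM in E1-KO and 14.9 to 15.9 CPM in E2-KO. Of the 10 HoxB genes 9 fell in D-KO, against a background of 4.99% of genes called lower. All 10 had D-KO libraries below every WT library, while 33.4% of all genes tested had groups apart in either direction. The cluster lies on chromosome 11 (GRCm38, plus strand). Promoters of Hoxb1, Hoxb2, Hoxb4 and Hoxb9 were sought. Those of Hoxb1 and Hoxb4 are shown because the RefSeq promoters used held no entry for Hoxb2 or Hoxb9. Each sequence is RefSeq's for GRCm38.p6 and runs from 250 bases before to 50 bases after the gene's start, at chr11:96365508-96365807 for Hoxb1 and chr11:96318017-96318316 for Hoxb4. Capitals mark matches on either strand to TGATNNAT, a motif of the type bound by Pbx and Hox proteins together, to AGGTCA, the half-site of retinoic acid receptors, or to TATAAA; no matches overlap.
Hoxb1: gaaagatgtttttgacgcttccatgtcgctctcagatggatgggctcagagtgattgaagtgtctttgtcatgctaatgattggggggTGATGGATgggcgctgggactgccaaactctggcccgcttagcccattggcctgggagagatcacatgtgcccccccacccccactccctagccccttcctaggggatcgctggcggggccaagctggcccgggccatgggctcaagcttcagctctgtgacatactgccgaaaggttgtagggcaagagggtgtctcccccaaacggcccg
Hoxb4: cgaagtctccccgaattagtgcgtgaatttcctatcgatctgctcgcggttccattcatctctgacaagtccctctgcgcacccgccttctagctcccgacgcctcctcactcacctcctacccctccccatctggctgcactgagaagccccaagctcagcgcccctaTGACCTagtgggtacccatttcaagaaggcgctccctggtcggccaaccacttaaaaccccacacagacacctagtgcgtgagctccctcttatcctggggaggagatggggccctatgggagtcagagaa
The Hoxb1 window held 1 match to TGATNNAT, starting 162 bases before the gene's start, and none to the other motifs. The Hoxb4 window held 1 match to AGGTCA on the minus strand, read as TGACCT, starting 81 bases before the gene's start. Over 32851 RefSeq mouse promoters of the same length, 8.85% held TGATNNAT, 16.3% AGGTCA and 13.6% TATAAA on either strand. A match is a description of the letters, not evidence of binding.

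Hoxb1, the first HoxB gene that retinoic acid switches on and a regulator of hindbrain identity, stood at 17.1, 31.3 and 20.04 CPM in the 3 WT libraries and at 0.302, 0.404 and 0.875 in D-KO (log2 change -5.43 ± 0.46 SE, edgeR adjusted p = 0.000568). Hoxb2, its neighbour and a hindbrain regulator as well, stood at 32.7, 37.0 and 13.9 CPM in WT and 0.403, 0.606 and 0.389 in D-KO (-5.90 ± 0.55). Both genes were far above the D-KO range in every WT library, although WT replicate 3 held less of Hoxb2 than the other WT libraries did. Hoxb3 fell by 6.25 ± 1.09 on the log2 scale, from 349 counts in WT to 4 in D-KO. Hoxb4, known for expanding blood stem cells when overexpressed, stood at 31.4, 38.5 and 17.3 CPM in WT and 0.101, 0.404 and 0.0972 in D-KO (-7.19 ± 0.72, edgeR adjusted p = 0.00040). Its D-KO libraries held 6 counts in all, and no WT library came near them.

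In the middle of the cluster 2 genes were not detected in D-KO at all. Hoxb5 stood at 11.8, 13.6 and 8.89 CPM in WT and had 0 counts in all D-KO libraries, which makes it at least 119-fold lower against a floor of 3 counts over the group. Hoxb6 stood at 6.26, 12.5 and 4.27 CPM in WT and also had 0 counts in D-KO, at least 84.3-fold lower. Hoxb7 went from 160 counts in WT to 3 in D-KO, a log2 ratio of -5.66 with a 95% counting interval of -7.96 to -4.09. Hoxb8 stood at 18.6, 24.1 and 6.28 CPM in WT and 0, 0.303 and 0.0972 in D-KO (-6.94 ± 1.15). Intervals and floors cover counting error only.

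The posterior end kept more RNA. Hoxb9 stood at 19.6, 15.8 and 10.7 CPM in WT and 1.51, 1.31 and 2.82 in D-KO (-3.02 ± 0.36, edgeR adjusted p = 0.00234). Its groups did not overlap, as for every called gene. Hoxb13, which lies apart from the other members and patterns the tail and prostate, was low in both genotypes, with 1.75, 1.11 and 2.96 CPM in WT and 0.705, 0.808 and 0.583 in D-KO. Its difference did not pass the test (-1.44 ± 0.51, edgeR adjusted p = 0.116). Of the 4 non-coding RNAs of the cluster on the list used, 3 were tested and 2 fell. Hoxb3os, transcribed against Hoxb3, stood at 37.5, 43.1 and 17.1 CPM in WT and 0.201, 0.202 and 0.583 in D-KO (-6.62 ± 0.65). Hoxb5os had 129 counts in WT and 0 in D-KO, at least 40.9-fold lower. Mir196a-1 did not pass the test (-0.50 ± 0.46). Gm53, a long non-coding RNA gene between Hoxb13 and Hoxb9, was not on that list and kept most of its RNA. It stood at 18.6, 24.1 and 8.89 CPM in WT and 10.6, 9.99 and 12.7 in D-KO. Its groups overlapped and it did not pass (-0.63 ± 0.33, edgeR adjusted p = 0.271). The sources do not give the strand setting of the counting, so Hoxb3os and Hoxb5os reads cannot be told apart from reads of overlapping genes. In every alternative fit, and with any 1 library left out, 9 or 10 HoxB genes were called lower.

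**Figure D2:**
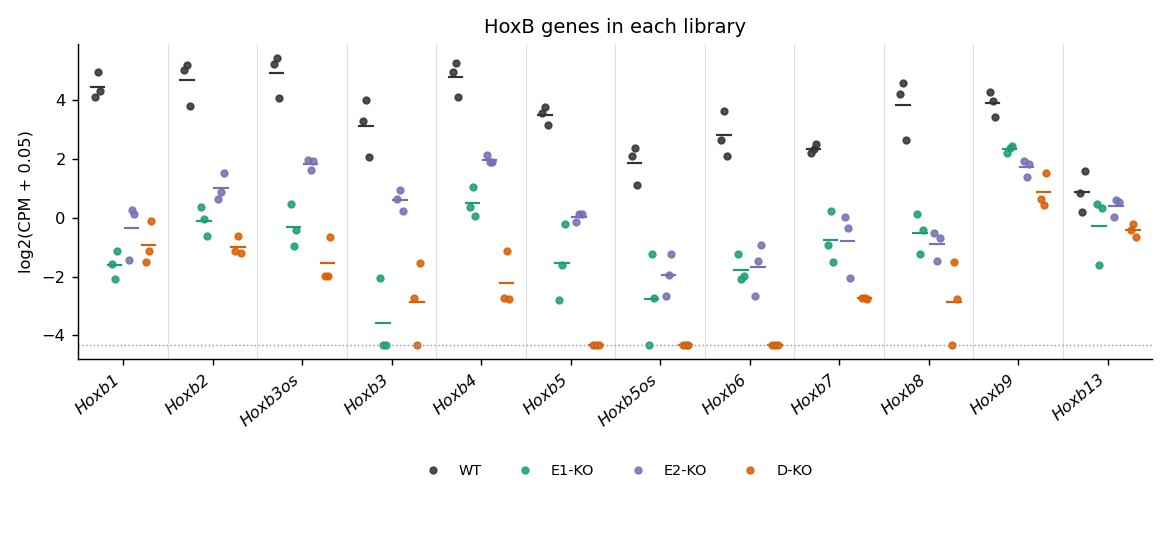
Log2(CPM + 0.05) of 10 HoxB genes and 2 antisense RNAs in each library, from Hoxb1 on the left to Hoxb13 on the right; points are libraries, bars are means of 3, and the dotted line marks 0 counts. The 3 WT points lie above the 3 D-KO points for all 12, and Hoxb5, Hoxb5os and Hoxb6 lie on the dotted line in D-KO.

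The tested genes nearest to the cluster on each side fell as well, while most of those further out were not called. Within 1 Mb beyond Hoxb13, 2 of 20 tested genes were lower and none higher, with a median log2 change of -0.12. Over all genes tested, 4.99% were called lower. Within 1 Mb beyond Hoxb1, 1 of 26 was lower and 1 higher, with a median of -0.07, whereas 11 of 14 tested genes between those borders were lower. The nearest tested gene beyond Hoxb1 was Skap1, 96.3 kb away, which encodes an adaptor of T cell receptor signalling. Skap1 stood at 2.36, 0.962 and 1.78 CPM in WT and 0.101, 0.303 and 0.194 in D-KO (-3.07 ± 0.71). The next tested gene on that side lies 398.5 kb from Hoxb1. On the other side the nearest tested gene, Ttll6, a tubulin glutamylase 28.9 kb from Hoxb13, fell by 0.87 ± 0.22. Calcoco2, an autophagy receptor 82.35 kb from Hoxb13, stood at 429, 345 and 289 CPM in WT and 190, 190 and 183 in D-KO (-0.91 ± 0.18). Calcoco2 was at a similar level in E1-KO (203 CPM on average) and E2-KO (192). Tbx21, a T-box factor further out, stood at 0.616, 0.666 and 0 CPM in WT and 2.62, 3.43 and 1.94 in D-KO (2.55 ± 0.69).

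Beyond HoxB, the HoxA cluster on chromosome 6 was partly reduced. Of 11 HoxA genes 9 were tested and 7 fell, with none higher and a median log2 change of -1.18. Hoxa5, a regulator of the neck and thorax, stood at 81.0, 103 and 74.0 CPM in WT and 27.2, 33.9 and 35.9 in D-KO (-1.41 ± 0.18, edgeR adjusted p = 0.00323). Hoxa7 stood at 35.8, 37.9 and 33.3 CPM in WT and 9.07, 8.28 and 9.62 in D-KO (-1.98 ± 0.17). The groups did not overlap for either gene, as for every called gene. Hoxa2, a hindbrain and jaw regulator, did not pass and was at 0.58 ± 0.37. With 1 library left out, 2 to 7 HoxA genes were called lower. HoxC and HoxD genes were nearly silent, with 15 of 18 below the count filter. Hoxc4 stood at 3.18, 5.48 and 4.03 CPM in WT and 0.504, 0.101 and 0.486 in D-KO (-3.54 ± 0.56), and Hoxd13 fell by 1.92 ± 0.32.

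Of 11 TALE cofactors, all tested, 2 fell and none rose (4.99% of all genes tested were called lower). Meis1, a Hox partner, stood at 20.8, 21.6 and 12.5 CPM in WT and 7.86, 8.48 and 8.17 in D-KO (-1.16 ± 0.24, edgeR adjusted p = 0.0217). Its groups did not overlap, as for every called gene. Members that did not pass had values on both sides of 0, such as Meis2 at -0.49 ± 0.15 and Pbx2 at 0.49 ± 0.15, and the list's median was 0.19. The number called lower ranged from 0 to 3 when 1 library was left out.

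None of the 11 retinoid receptors and their corepressors passed the edgeR test, 2 had an unadjusted p below 0.05, and DESeq2 and limma-voom called 0 and 0. Rarb, itself a target of the receptors, stood at 14, 16.2 and 20.3 CPM in WT and 16.9, 18.5 and 23.3 in D-KO, with overlapping groups (0.23 ± 0.21). Rarg, the receptor with a role in early stem cell differentiation, was at 218, 315 and 256 CPM in WT and 362, 354 and 361 in D-KO (0.45 ± 0.17, edgeR adjusted p = 0.135).

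Among genes that take up, bind or break down retinoids, 3 of 11 tested fell and none rose, with a median of -1.02. Cyp26a1, the enzyme that clears retinoic acid and one of its strongest targets, stood at 228, 288 and 146 CPM in WT and 95.7, 96.6 and 99.2 in D-KO (-1.18 ± 0.23, edgeR adjusted p = 0.0168). Stra6, the receptor that brings retinol into cells, stood at 34.8, 51.3 and 37.5 CPM in WT and 14.8, 18.3 and 18.4 in D-KO (-1.26 ± 0.20). Aldh1a2, which makes retinoic acid, stood at 3.18, 4.14 and 3.08 CPM in WT and 0.705, 0.707 and 1.56 in D-KO (-1.81 ± 0.42). D-KO libraries lay below all WT libraries for each of these, as for every gene called lower. Dhrs3, a retinal reductase, missed the threshold at -0.64 ± 0.17 (edgeR adjusted p = 0.0528). The count of fallen members ranged from 0 to 5 with 1 library left out.

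Of 11 tested regulators that retinoic acid induces outside Hox, 4 fell and 1 rose. With 1 library left out, 0 to 4 fell and 0 to 2 rose. Skil, a corepressor of TGF-beta signalling, stood at 309, 254 and 476 CPM in WT and 131, 133 and 131 in D-KO (-1.39 ± 0.23). Foxa1, an endoderm pioneer factor, fell by 1.48 ± 0.28, and Tshz1, a zinc finger factor, by 1.79 ± 0.31. Tgm2, transglutaminase 2 and a classic retinoic acid target, rose from 4.31, 5.25 and 4.03 CPM to 7.86, 9.39 and 8.07 (0.90 ± 0.23, edgeR adjusted p = 0.0443). Stra8, the retinoic-acid-stimulated gatekeeper of meiosis, overlapped between genotypes, with 323, 225 and 121 CPM in WT and 322, 332 and 347 in D-KO.

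Primitive endoderm factors were lower. Of the 8 listed transcription factors, all tested, 5 fell and none rose, with a median of -1.26. Gata6, which starts this lineage, stood at 72.6, 69.6 and 69.1 CPM in WT and 47.6, 44.9 and 45.7 in D-KO (-0.61 ± 0.13, edgeR adjusted p = 0.0244). Gata4 stood at 15.2, 18.6 and 11.1 CPM in WT and 6.95, 4.75 and 5.25 in D-KO (-1.41 ± 0.26). Sox7 fell by 1.26 ± 0.25 and Foxq1 by 1.53 ± 0.31, while Sox17 did not pass at -0.78 ± 0.33. Summed over the list, WT libraries held 124 to 153 CPM and D-KO libraries 75.8 to 78.9 CPM. In RNA from a whole culture, fewer cells of a type and less RNA per cell cannot be told apart. The count ranged from 0 to 6 with 1 library left out.

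Genes downstream of that lineage moved both ways. Of 8 tested carriers and endocytosis genes of the visceral endoderm, 3 fell and 2 rose (0 to 4 and 1 to 3 with 1 library left out). Cubn, the endocytic receptor cubilin, stood at 18.7, 15.0 and 25.02 CPM in WT and 7.15, 6.97 and 6.90 in D-KO (-1.47 ± 0.23). Dab2, its clathrin adaptor, fell by 1.49 ± 0.22. Apoe, a lipid carrier that stem cells also express, rose from 74.2, 120 and 58.3 CPM to 194, 195 and 208 (1.24 ± 0.24). Of 12 basement membrane genes 3 fell, namely the laminin chains Lama1 (-1.005 ± 0.23) and Lamb1 (-0.70 ± 0.14) and the collagen hydroxylase P4ha2 (-0.95 ± 0.18). With 1 library left out 0 to 4 members fell, and 4.99% of all genes tested were called lower. Lama1 lies on chromosome 17 between 60 and 70 Mb, where 6 of 22 tested genes were lower and none higher, and the part of that stretch in its fall was not tested.

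Genes of the 2-cell-like state, a rare and transient state of stem cell cultures marked by Zscan4, were lower as well. Of 16 tested members 10 fell and none rose, and the list's median was -1.78. Zscan4d stood at 85.02, 57.9 and 51.9 CPM in WT and 14, 13 and 11.5 in D-KO (-2.34 ± 0.21, edgeR adjusted p = 0.00107). Zscan4c stood at 77.9, 40.4 and 34.7 CPM in WT and 12.7, 13 and 14.1 in D-KO (-1.94 ± 0.29). The summed level of the list was 212 to 423 CPM in WT and 76.8 to 78.6 in D-KO. Zscan4a to Zscan4f and the 3 Usp17l genes that fell have near-identical copies, so their single values are uncertain. With 1 library left out, 5 to 14 members were lower.

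Naive pluripotency genes, which fall as stem cells differentiate, were higher where they changed. Of 17 tested, 6 rose and none fell (background 4.1% higher), with a median of 0.28. Klf2 stood at 43.1, 80.7 and 39.7 CPM in WT and 148, 148 and 130 in D-KO (1.38 ± 0.26). Klf4 stood at 64.4, 94.1 and 77.0 CPM in WT and 140, 133 and 136 in D-KO (0.80 ± 0.17). Esrrb, an orphan nuclear receptor of the naive network, rose from 290, 368 and 329 CPM to 515, 513 and 536 (0.67 ± 0.15, edgeR adjusted p = 0.028). Tdh, a threonine dehydrogenase of stem cells, rose by 1.48 ± 0.21, Tcl1 by 1.182 ± 0.17 and Nr0b1 by 0.66 ± 0.15. Nanog at 0.14 ± 0.15 and Zfp42 at 0.28 ± 0.14 did not pass. The count was 2 to 8 with 1 library left out.

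Among 13 core pluripotency genes 3 rose and none fell, with a median of 0.56. The count of rises was 1 to 6 with 1 library left out. Utf1, a chromatin-bound stem cell factor, stood at 79.7, 200 and 88.1 CPM in WT and 348, 346 and 333 in D-KO (1.49 ± 0.32). Tdgf1, the Nodal coreceptor Cripto, rose from 274, 226 and 259 CPM to 443, 448 and 450 (0.83 ± 0.15), and Zfp296 rose by 1.32 ± 0.20. Pou5f1, which encodes Oct4, had widely spread WT values of 796, 1144 and 417 CPM and stood at 1187, 1215 and 1150 in D-KO, above every WT library but past no threshold (0.60 ± 0.31, edgeR adjusted p = 0.264). Sox2 had 146, 194 and 87.3 CPM in WT and 266, 261 and 263 in D-KO (0.89 ± 0.25, adjusted p = 0.064).

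In the list of 14 formative and primed epiblast genes, 3 rose and 2 fell (1 to 5 and 2 to 3 with 1 library left out). The de novo DNA methyltransferase Dnmt3b stood at 139, 144 and 169 CPM in WT and 292, 305 and 303 in D-KO (1.00 ± 0.15, edgeR adjusted p = 0.00572). Foxd3, a forkhead repressor, rose by 1.69 ± 0.36 and Grhl2, an epithelial factor, by 1.08 ± 0.26. Sox4 fell by 1.15 ± 0.15 and Sall2 by 1.17 ± 0.16. Otx2, the factor that opens the formative state, was low and missed the threshold at 1.25 ± 0.35 (adjusted p = 0.055).

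**Figure D3:**
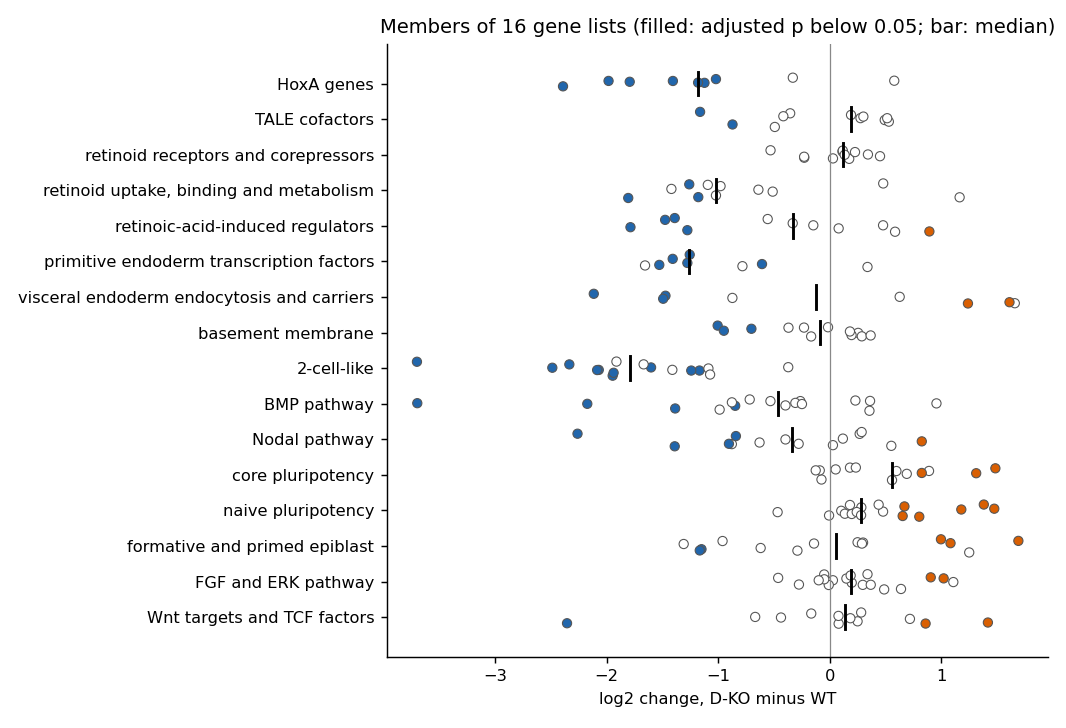
Log2 change of D-KO minus WT for the tested members of 16 gene lists; each point is a gene, filled where called (orange higher, blue lower), and the bar is the list's median. HoxA, primitive endoderm and 2-cell-like medians lie between -1.78 and -1.18, and the naive and core pluripotency medians at 0.28 and 0.56.

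BMP signalling works through SMAD proteins that switch on Id and Msx genes. Of 16 tested members 4 fell and none rose, with a median of -0.46 (4.99% of all genes tested were called lower). Msx1, a homeobox target, stood at 9.55, 9.47 and 5.57 CPM in WT and 0.604, 0.707 and 0.583 in D-KO (-3.70 ± 0.38, edgeR adjusted p = 0.00119). Id2, an inhibitor of basic helix-loop-helix factors, stood at 86.0, 57.8 and 39.7 CPM in WT and 15.0, 12.4 and 13.1 in D-KO (-2.17 ± 0.27). Id1 fell by 1.39 ± 0.33, and Bmpr1a, a type I receptor, by 0.85 ± 0.20. Each of the 4 genes was lower in every D-KO library than in any WT library, as was every gene called lower. With 1 library left out, 2 to 6 members were lower.

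In the Nodal pathway 4 of 14 tested genes fell and 1 rose. With 1 library left out, 0 to 6 members fell and 0 to 3 rose. The antagonist Lefty2 fell by 0.90 ± 0.17 and the receptor Acvr2a by 0.84 ± 0.21. Skil, given above, was also among the falls, and Tdgf1 was the rise. Nodal itself did not pass (0.55 ± 0.19, edgeR adjusted p = 0.114). Among 18 FGF and ERK genes 2 rose: Myc, from 70.03, 71.0 and 44.7 CPM to 121, 114 and 112 (0.91 ± 0.19), and Phlda1 (1.02 ± 0.21). Of 12 Wnt genes the repressor Tcf7l1 (0.86 ± 0.15) and the Wnt deacylase Notum (1.42 ± 0.33) rose, and the antagonist Dkk1 fell by 2.36 ± 0.32. In the LIF pathway Socs2, a feedback inhibitor, rose by 1.53 ± 0.20 and the kinase Tyk2 fell by 0.78 ± 0.18 among 13 tested. In the FGF and ERK list 0 to 3 members rose with 1 library left out, in the Wnt list 0 to 3 rose and 1 fell, and in the LIF list 1 to 5 rose and 0 to 4 fell.

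Many later lineage genes were below the count filter. Of 8 early neural genes tested 2 rose and 1 fell, and with 1 library left out 0 to 2 rose and 1 to 2 fell (9.09% of all genes tested were called in either direction). Tubb3, the neuronal tubulin, stood at 19.8, 34.0 and 20.4 CPM in WT and 56.4, 66.8 and 55.2 in D-KO (1.27 ± 0.22), the filament gene Nes rose by 1.10 ± 0.28, and Sox11 fell by 1.84 ± 0.20. Of 6 streak and mesoderm genes tested, Eomes (-0.83 ± 0.20) and Pdgfra (-0.96 ± 0.21) fell, and 0 to 2 members did with 1 library left out. Of 13 trophectoderm genes Plet1 rose by 0.94 ± 0.25 and Eomes, which is on both lists, fell; 0 to 4 members rose and 0 to 1 fell with 1 library left out. The summed trophectoderm list was 132 to 142 CPM in WT and 137 to 143 in D-KO. Among 5 tested fibroblast markers Fbn1, fibrillin, fell by 2.13 ± 0.35, and the list's sum was 44.6 to 57.2 CPM in WT and 29.5 to 33.1 in D-KO. Of 16 epithelial and mesenchymal genes the tight junction gene Ocln (-2.27 ± 0.28) and the repressor Zeb2 (-1.94 ± 0.47) fell. The counts of lower genes were 0 to 1 for the fibroblast list and 1 to 3 for this list with 1 library left out.

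Of 14 germline genes tested 3 fell and 1 rose. The count of falls was 2 to 8 with 1 library left out. Dazl, an RNA-binding protein of germ cells, stood at 120, 71.5 and 112 CPM in WT and 17.4, 20.1 and 21 in D-KO (-2.37 ± 0.21, edgeR adjusted p = 0.000986). Sohlh2, a helix-loop-helix factor of early oocytes and spermatogonia, stood at 85.02, 82.4 and 88.3 CPM in WT and 5.44, 7.87 and 6.03 in D-KO (-3.72 ± 0.18, adjusted p = 5.03e-05). Tex19.1, which restrains transposons, fell by 1.29 ± 0.22, and Tex101 rose by 2.58 ± 0.31. Among 23 imprinted genes 3 rose and 2 fell (1 to 4 in each direction with 1 library left out). Grb10, an imprinted adaptor that dampens growth factor signalling, had one of the 2 smallest adjusted p-values of all genes: it stood at 444, 407 and 444 CPM in WT and 22.9, 24.8 and 26.9 in D-KO (-4.11 ± 0.15, adjusted p = 1.66e-05). Phlda2, an imprinted placental gene, rose by 1.44 ± 0.23, Gnas by 1.05 ± 0.19 and Impact by 0.91 ± 0.16, and Zim1 fell by 1.94 ± 0.46.

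Among housekeeping and stress lists, none of 13 integrated stress response genes and none of 14 genes of amino acid transport and serine synthesis passed, nor did any of 14 CTCF and cohesin genes, 18 enhancer coactivators and histone enzymes, 12 mitochondrially encoded genes or 29 nuclear oxidative phosphorylation genes in the edgeR test. In the same order, 2, 2, 3, 1, 3 and 5 members had an unadjusted p below 0.05, DESeq2 called 1, 0, 1, 1, 0 and 1, and limma-voom called 3, 1, 2, 1, 0 and 3. Without WT replicate 2, 5 integrated stress response, 3 amino acid and 5 nuclear oxidative phosphorylation genes were called higher, and 6 CTCF and cohesin, 2 coactivator and 6 mitochondrially encoded genes lower. Of 21 glycolysis genes 3 rose and 1 fell (0 to 8 and 0 to 2 with 1 library left out). Eno1, enolase, stood at 1229, 1318 and 1444 CPM in WT and 2183, 2159 and 2144 in D-KO (0.71 ± 0.15), while Slc2a3, the glucose transporter GLUT3, stood at 2557, 2789 and 2827 CPM in WT and 1522, 1494 and 1463 in D-KO (-0.86 ± 0.15). Both gaps exceeded the spread of either genotype. Of 81 ribosomal protein genes Rpl30 (1.62 ± 0.20) and Rpl39l (2.30 ± 0.25) rose, and since such genes have many near-identical copies their values are uncertain. The count of rises was 2 to 15 with 1 library left out, the highest without WT replicate 2. Of 28 cell cycle genes the mitotic kinase Aurka rose by 0.97 ± 0.14, and the inhibitor Cdkn1b, p27, fell by 1.14 ± 0.17; 1 to 5 members rose and 0 to 5 fell with 1 library left out. The Polycomb list of 25 had 1 rise, Kdm2b, which recruits the complex to CpG islands, at 0.58 ± 0.15. With 1 library left out it had 0 to 4 rises and 0 to 2 falls. Over all genes tested, 4.1% were called higher and 4.99% lower, and the ribosomal, cell cycle and Polycomb lists did not exceed these shares. Of 10 DNA methylation genes Dnmt3b rose and Tet2 fell by 0.90 ± 0.20. In the remaining lists the ER regulator Xbp1 (0.58 ± 0.13), the growth factor Gdf15 (1.73 ± 0.38), the sterol enzyme Nsdhl (0.99 ± 0.16) and the antiviral Ifitm3 (1.27 ± 0.28) rose, and the chaperone Dnajc3 (-0.72 ± 0.18), the p53 target Trp53inp1 (-0.79 ± 0.18), the sterol carrier Stard4 (-0.85 ± 0.19) and 3 of 11 tested histone genes fell. Each of these remaining lists also gained or lost calls with 1 library left out, such as 0 to 5 falls among the histones.

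The steepest rises were of genes near silence in WT. Csmd3, which encodes a large membrane protein of neurons on chromosome 15, had 0 counts in WT and stood at 39.1, 35.1 and 35.3 CPM in D-KO, at least 385-fold higher. Cyp2b23, a cytochrome P450 gene, stood at 3.18, 3.26 and 2.13 CPM in WT and 79.7, 77.1 and 77.5 in D-KO (4.76 ± 0.19, edgeR adjusted p = 1.66e-05). Egr4, an early growth response factor, had 2 counts in WT and 148 in D-KO, a log2 ratio of 6.28 with a 95% counting interval of 4.40 to 9.34. These rises were present in all D-KO libraries. H2-Eb1, an MHC class II chain, stood at 1.54, 1.41 and 0.119 CPM in WT and 13.4, 16.5 and 13.3 in D-KO (3.75 ± 0.49). Ube2l6, the conjugating enzyme for ISG15, rose by 3.64 ± 0.35, Tbxa2r, the thromboxane receptor, by 3.79 ± 0.75, Miip by 3.64 ± 0.53, Spint5 by 5.63 ± 1.02, Cyp2c69 by 3.40 ± 0.43, Ube2dnl1 by 3.34 ± 0.45, Magea4 by 3.23 ± 0.35 and Efhc2 by 3.22 ± 0.45.

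Other rises with small adjusted p-values were those of Smtnl1 (3.08 ± 0.20), Pnma5 (3.00 ± 0.21), Zan (2.74 ± 0.22), which encodes a sperm membrane protein, the meiotic kinase Aurkc (2.07 ± 0.16), Nup62cl (1.76 ± 0.15) and the podocyte gene Nphs1 (1.72 ± 0.15). Among abundant genes Gpx4, which protects lipids from peroxidation, stood at 475, 578 and 339 CPM in WT and 928, 922 and 909 in D-KO (0.99 ± 0.20). Ddx21, an RNA helicase of ribosome synthesis, rose by 0.79 ± 0.19, Cnn3, calponin 3, by 0.85 ± 0.14, and the calpain subunit Capns1 by 0.85 ± 0.19. Rpa1, which coats single-stranded DNA, fell by 0.73 ± 0.15. The abundant ribosomal RNA genes Gm42418 (-2.36 ± 0.59) and mt-Rnr1 (-2.57 ± 0.62) fell, and both were highest in WT replicate 3, with 5609 and 3906 CPM against at most 1246 and 851 in the other WT libraries.

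The falls outside HoxB included the Y chromosome. Ddx3y, an RNA helicase, stood at 65.0, 41.9 and 56.3 CPM in WT and had 0 counts in D-KO (at least 530-fold lower). Uty, Eif2s3y and Uba1y also had 0 counts in D-KO, against 856, 801 and 125 in WT. Ddx3y and Eif2s3y had 0 counts in E1-KO and E2-KO as well. A loss of the chromosome and silence of its genes cannot be told apart from counts.

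Called genes also clustered along some chromosomes. Of 229 bins of 10 Mb with at least 20 tested genes, 13 had 25% or more of their genes called, and they held 200 of the 1438 calls, 141 lower and 59 higher. The threshold was set after the values were seen. Outside these bins and the Y chromosome, 1233 of 15240 genes (8.09%) were called, 590 higher and 643 lower. The bins at HoxB on chromosome 11 were not among them.

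The stretches described next were chosen after the values were seen. The densest lay on chromosome 4 between 30 and 35 Mb, where 19 of 24 tested genes were lower in D-KO with a median log2 change of -1.39. Relative to the WT mean, the median of these genes was -1.32 to -1.30 in the D-KO libraries and -1.22 to -1.12 in E2-KO, but -0.22 to -0.15 in E1-KO and -0.14 to 0.11 in WT. From 40 to 50 Mb of the same chromosome the D-KO median was 0.08. On chromosome 3 from 140 to 160 Mb, 27 of 61 genes were lower and none higher (median -0.79). There the D-KO library medians were -0.79 to -0.68, those of E1-KO -0.27 to -0.19 and those of E2-KO -0.30 to -0.16.

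Other stretches differed from WT in all 3 KO genotypes. On chromosome 6 from 100 to 150 Mb, 89 of 326 genes were lower and 2 higher (median -0.53). Library medians there were -0.51 to -0.49 for D-KO, -0.46 to -0.43 for E1-KO and -0.50 to -0.47 for E2-KO. Slc2a3, Wnk1, Etnk1, Cdkn1b, Emp1 and Fam234b lie in that stretch. Emp1, an epithelial membrane protein, stood at 62.2, 53.1 and 49.0 CPM in WT and 7.55, 9.59 and 8.94 in D-KO (-2.65 ± 0.18), far below the stretch's median change. Wnk1 (-0.96 ± 0.24), Etnk1 (-0.95 ± 0.18) and Fam234b (-1.90 ± 0.15) also fell. On chromosome 2 from 160 to 170 Mb 28 of 94 genes were higher and none lower (median 0.66), and on chromosome 10 from 50 to 70 Mb 28 of 88 were higher and none lower (median 0.64), which takes in Ddx21 and Hk1, hexokinase 1 (0.95 ± 0.15). The HoxA genes lie in another dense bin of chromosome 6, from 50 to 60 Mb. Without the HoxA symbols 8 of its 51 tested genes were lower, with a median of -0.19. DNA copy number was not measured, and its part in these stretches was not tested.

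**Figure D4:**
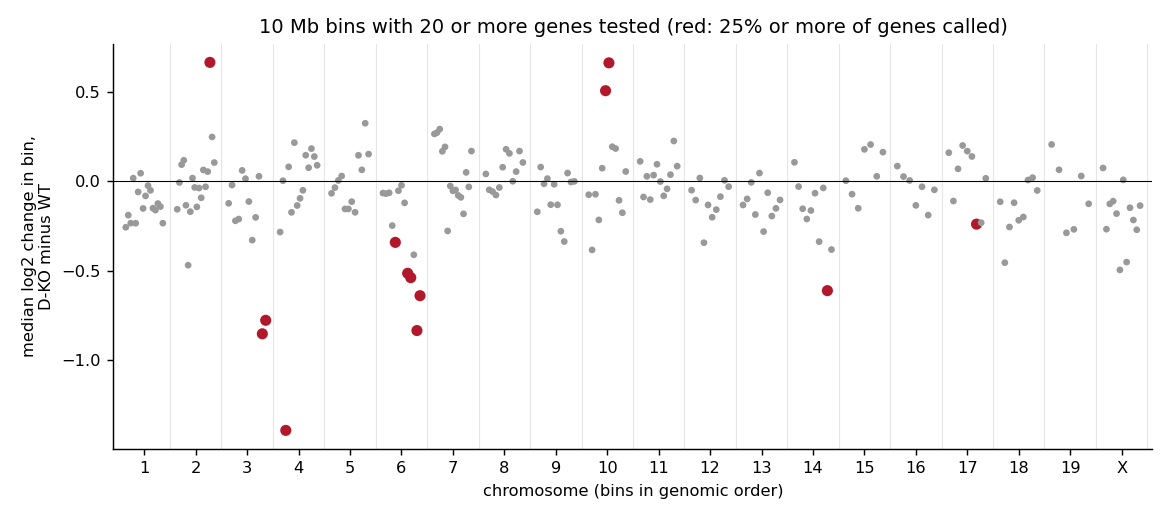
Median log2 change of D-KO minus WT in each 10 Mb bin with 20 or more tested genes, grouped by chromosome and in genomic order within it; red points are the 13 bins with 25% or more of genes called. The chromosome 4 bin lies at -1.39, the 2 chromosome 3 bins at -0.85 and -0.78, and the red bins of chromosomes 2 and 10 lie above 0.5.

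The D-KO libraries were also set beside those with 1 enhancer deleted, in a fit of the 9 KO libraries without WT. The spread among these was small, and 7898 of 16287 genes (48.5%) differed from E1-KO and 6124 (37.6%) from E2-KO, so a call there is common and a member count has to be read against it. The rank correlation with GC content differed between these genotypes too: the D-KO values given above were below those of E1-KO (0.25 to 0.35) and of E2-KO (0.30 to 0.44). Hoxb4 was lower in D-KO than in E1-KO (1.43 CPM on average, log2 difference -2.86, edgeR adjusted p = 4.34e-05) and than in E2-KO (3.91 CPM, -4.29, adjusted p = 2.6e-10). Hoxb9 was lower than in E1-KO (5.06 CPM, -1.43) and E2-KO (3.28 CPM, -0.80). Hoxb2 and Hoxb3 were lower than in E2-KO (-2.14 and -3.50) but did not pass against E1-KO (-1.005 and 1.04). Hoxb1 and Hoxb5 to Hoxb8 were below the count filter of this fit. Hoxc4 was lower than in both genotypes (-2.08 and -2.06).

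The naive pluripotency list, 6 of whose members rose against WT, was mostly lower in D-KO than in the single deletions: 10 of 18 tested genes were lower and 2 higher than in E1-KO (background 25% lower), and 11 were lower and 5 higher than in E2-KO (background 18.8%). In every alternative fit 10 members were lower than in E1-KO. The count lower than in E2-KO was less firm, at 1 to 11 over the alternative fits and 9 with GC content and length offsets. The list's summed level was 3644 to 3708 CPM in D-KO and 2879 to 3138 CPM in WT. The sum was higher in both single deletions, at 4799 to 4908 CPM (E1-KO) and 4337 to 4377 CPM (E2-KO). Some genes that rose against WT, chosen after their values were seen, were higher in D-KO than in either single deletion. Tdgf1 averaged 221 CPM (E1-KO) and 295 CPM (E2-KO), and D-KO was higher by 1.01 and 0.60. Dnmt3b averaged 203 and 219 CPM, and D-KO was higher by 0.55 and 0.45. Myc (67.5 and 86.6 CPM, D-KO higher by 0.77 and 0.42), Notum (15.0 and 14.2 CPM, by 1.48 and 1.57) and Cyp2c69 (0.898 and 1.26 CPM, by 2.25 and 1.80) showed the same order. All 10 of these differences passed the edgeR test. Csmd3 had 0 counts in E1-KO and averaged 20.4 CPM in E2-KO.

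Some genes that fell against WT, chosen in the same way, were higher in D-KO than in the single deletions. All 6 Zscan4 genes were higher in D-KO than in E1-KO (1.42 to 2.18 on the log2 scale) and than in E2-KO (1.48 to 1.69), and 11 of 12 tested 2-cell-like genes were higher in each case (background 23.5% and 18.8%). Gata6 averaged 16.2 CPM (E1-KO) and 36.5 CPM (E2-KO), and D-KO was higher by 1.49 and 0.34. Cubn averaged 0.804 and 3.47 CPM, and D-KO was higher by 3.12 and 1.01. Cyp26a1 was higher by 0.86 and 0.24, in that order. Of 9 tested HoxA genes, 5 were higher in D-KO than in E1-KO and none lower, whereas against E2-KO none was higher and 1 lower (median 0.01).

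Stress genes that did not pass against WT separated D-KO from the single deletions. All 13 integrated stress response genes were lower in D-KO than in either single deletion (background 25% and 18.8% lower), with medians of -0.76 and -1.10. Atf4, the factor that drives this response, stood at 283, 329 and 117 CPM in WT, 280, 283 and 270 in D-KO, and at a mean of 392 in E1-KO and 444 in E2-KO. Trib3, one of its targets, stood at 28.0, 39.5 and 20.99 CPM in WT, 34.4, 40.2 and 35.97 in D-KO, and 77.0 and 99.2 on average in E1-KO and E2-KO. The D-KO values of both lay within or near the WT range, and all E1-KO and E2-KO libraries were above them. With offsets for GC content and gene length, 12 of 13 were lower in each comparison. In a fit of all 12 libraries, which shares the WT spread, 4 members were lower than in E1-KO and 6 lower than in E2-KO.

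**Figure D5:**
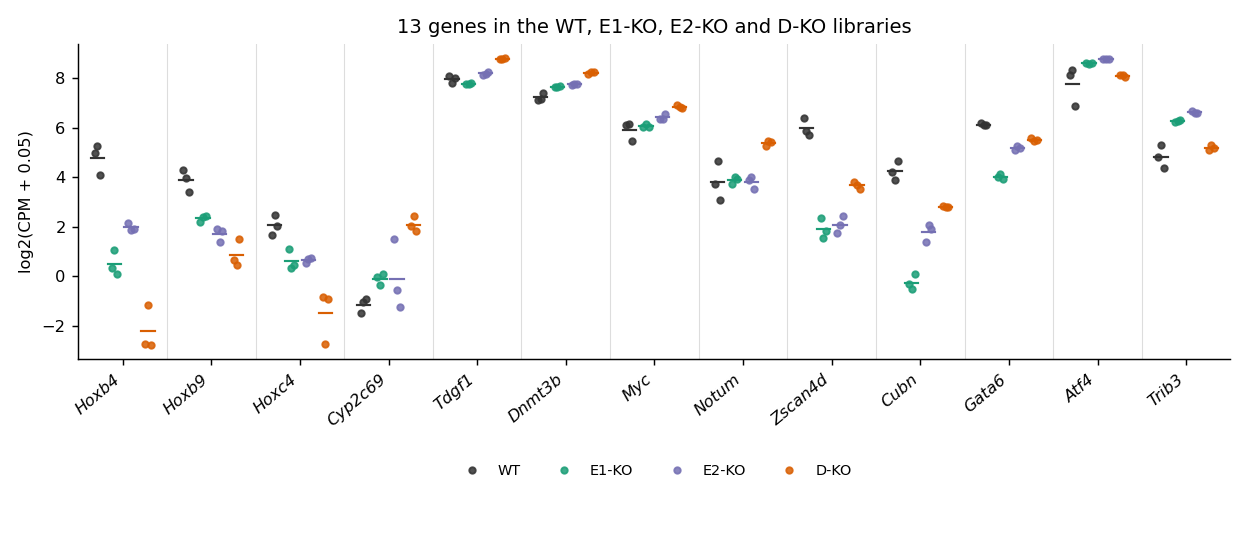
Log2(CPM + 0.05) of 13 genes in each library of the 4 genotypes; points are libraries and bars are means of 3. Hoxb4, Hoxb9 and Hoxc4 are lowest in D-KO, Tdgf1, Dnmt3b, Myc, Notum and Cyp2c69 are highest there, and Zscan4d, Cubn and Gata6 in D-KO lie between WT and both single deletions.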

How the data were processed

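Per the submitters' processing notes, reads were handled with HISAT2 2.1.0, HTSeq 0.9.1 and DESeq2 1.18.1 on mm10 (gene models and strandedness of counting: not given). The deposited values were whole-number counts per gene symbol for each library, not normalized by the authors. HTSeq's summary rows, such as reads in no feature, were left out of library sizes and tests (reads in no feature were 1.12 to 1.20 times the gene counts).

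D-KO and WT were compared in a fit of their 6 libraries with edgeR 4.0.16 in R 4.3.3: filterByExpr, TMM factors, robust quasi-likelihood test, Benjamini-Hochberg adjustment over all genes tested, called at an adjusted p below 0.05. D-KO was compared with E1-KO and E2-KO in a fit of the 9 KO libraries. Log2 changes are unshrunken, with ± SE; CPM used TMM factors over 12 libraries. A gene with 0 counts in a group was bounded by a floor of 3 counts over the group, and with 1 to 3 counts by an exact 95% interval. Positions are those of GENCODE M21 (GRCm38); 48181 of 52535 symbols matched it. The steps were tested on simulated counts. Alternatives used DESeq2 1.42.0, limma 3.58.1 (voom), other scalings and filters, GC content and length offsets, the replicate block, all 12 libraries, and left-out libraries.

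The gene lists and members were chosen with earlier results of these data known. Genes were named by rule: all HoxB genes, the 12 largest rises and falls at an average log2 CPM of at least 1, the 8 smallest adjusted p in each direction, up to 4 members of each of 46 lists, and the 6 most abundant calls in each direction. Further list members, and genes set beside the single deletions, were named after their values were seen. Chromatin samples were not analysed here. Some list members are counted but not reported singly here.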

Additional observations from a re-analysis of the deposited data

How the results depend on the processing

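The number of genes that differed between D-KO and WT was 1438, and 1313 to 2148 under other scalings, filters, tests, GC content and length offsets and the replicate block. It ranged from 318 to 4237 with 1 library left out, was 3824 with all 12 libraries in the fit, and 6281 without WT replicates 1 and 3, where the lone WT library is assumed to vary like D-KO. The cause was not tested; a left-out library also means fewer samples. None of the 1438 called genes changed sign where it was tested; 1415 of them were tested with the GC content and length offsets. Of 179 genes followed, 88, 83 and 85 lost their call without D-KO replicates 1, 2 and 3, and 64 without WT replicate 1. HoxB genes called lower numbered 9 throughout, and up to 10 with 1 library left out.

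The counts against E1-KO and E2-KO fell from 7898 and 6124 to 2674 and 751 with all 12 libraries in the fit, which adds the WT spread; with 1 library left out they were 6960 to 7319 and 5164 to 6113. With GC content and length offsets, 6128 of 7695 tested calls against E1-KO and 4180 of 6000 against E2-KO were called in the same direction. The sign changed for 158 and 224 of them.

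Stress genes that were not called changed sign against WT. Atf4 was at -0.0125 with GC content and length offsets, -0.138 to 0.476 with 1 library left out (lowest without WT replicate 3) and -0.24 without WT replicates 1 and 3. Chac1 was at -0.139 with the offsets, -0.123 with the offsets and the replicate block, -0.0915 to 0.538 with 1 library left out (lowest without WT replicate 3) and -0.397 without WT replicates 1 and 3, where Trib3 was at -0.0978. The fit without WT replicates 1 and 3 holds a lone WT library and so no spread among WT replicates. Its values are given as effect sizes only.

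No pairing by replicate number was seen. Deviations of WT and D-KO libraries with the same number correlated at -0.081, 0.027 and 0.023, and those with different numbers at -0.103 to 0.092. With 3 libraries per genotype these values cannot show whether replicates were handled together. The fit with the replicate block called 1698 genes. The WT spread limits what could be detected.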
